A study of Mus musculus with 2 samples.

Results

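A set of 9 genes of the fibroblast growth factor (FGF) system were followed through the cell types of the mouse colon. They were listed by name: the 6 ligand genes Fgf1, Fgf2, Fgf7, Fgf9, Fgf10 and Fgf18 and the 3 receptor genes Fgfr1, Fgfr2 and Fgfr3. All 9 were present in both single-cell tables, among 17809 genes in the first and 15972 in the second. The first library held colon cells of C57BL/6 wild-type mice, from which epithelial (EpCAM+, CD45-) and other (EpCAM-, CD45-) cells had been sorted and mixed in equal parts. The second held mesenchymal cells sorted for GFP from the Pdgfra-H2B-eGFP strain, in which the Pdgfra locus drives a nuclear green fluorescent protein. In both, cells of 3 female mice aged 8 to 12 weeks were pooled and no treatment was given. Each group is 1 library and its cells cannot be traced to single mice, so no test between conditions could be made. Shares of cells are therefore given with exact (Clopper-Pearson) 95% intervals, which cover counting error only, and a gene is called higher or lower between classes of cells when its mean differed by at least 2-fold.

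FGFs are secreted proteins that bind receptor tyrosine kinases on neighbouring cells together with heparan sulfate, a sugar chain on cell-surface proteoglycans. The receptors signal through the adaptor Frs2 and the MAP kinase cascade, and switch on their own feedback inhibitors, among them the Sprouty proteins. Fgf7 and Fgf10 are known as mesenchymal ligands for the epithelial splice form of Fgfr2. Fgf9 and Fgf18 act mainly on the mesenchymal splice forms and on Fgfr3, Fgf2 acts mainly on the mesenchymal splice forms, and Fgf1 binds all FGF receptors. The reads came from the 3′ ends of transcripts, so the splice forms of a receptor could not be told apart.

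The wild-type table held 7495 cells in 20 clusters and the reporter data 4409 cells in 8 clusters, and 1 cell barcode occurred in both. The values are counts that had been corrected for sequencing depth, so a value above 0 need not be a sequenced molecule and the true depth is unknown. The corrected total per cell was 6120 to 16389 (median 8972) for wild-type and 2314 to 4432 (median 3150) for reporter cells. Because the kits and the corrected depths differed, levels of the 2 libraries are given side by side and are not compared. Clusters were named from marker genes and are called by those names with "-like". The fibroblast classes carry the study's names. They are crypt top fibroblasts (CTFs), and the crypt bottom fibroblasts CBFs1 and CBFs2. The wild-type library held 821 CTFs-like, 1139 CBFs1-like and 502 CBFs2-like cells, and the reporter library 519, 2629 and 852. The reporter CBFs1-like clusters were the least certain. Their CBFs1 markers exceeded the rest of that library by a median log2 ratio of only 0.28 to 0.70, and they were named against the other fibroblast classes in a second step. Most reporter cells were fibroblast-like, as their label of mesenchymal cells says, but 114 cells were immune-like and 52 epithelial-like.

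The genes lie apart in the genome. In RefSeq on GRCm38.p6, Fgf2 spans chr3:37348477-37410106, Fgf7 chr2:126034658-126091185, Fgf9 chr14:58070671-58112854, Fgf10 chr13:118714699-118792573, Fgf18 chr11:33116970-33147400, Fgfr1 chr8:25518759-25575718, Fgfr2 chr7:130162451-130266808 and Fgfr3 chr5:33721724-33737068. Of the genes placed here, Fgf18 and Fgfr2 are on the minus strand. Fgf1, also on the minus strand, is not placed here. Some members share sequence with a gene on the other strand, and the sources used here do not say whether counting used strand. On the strand of Fgf2, the processed transcript Gm43439 overlaps an exon of Fgf2 and was listed in neither library. An exon of Fgf2 overlaps Nudt6, a nudix hydrolase gene, which had its highest means in epithelial cells (0.304 in the untyped epithelial cluster) and a mean of 0.0228 in CBFs1-like cells. An exon of Fgf10 overlaps the antisense transcript Gm16263, which was listed in the reporter library only and was above 0 in 2.93% of CBFs1-like cells. Exons of Fgfr1 also overlap the antisense transcript Gm16159, and exons of Fgfr3 overlap G630022F23Rik on the other strand.

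The promoters of 4 members are shown because these genes separated the fibroblast classes most. Fgf9 and Fgf18 were high in CBFs2-like and low in CBFs1-like cells, and Fgf10 and Fgfr2 had the opposite pattern. Each sequence runs 5′ to 3′ on the gene's strand, from 250 bases before to 50 bases after a transcript start in the RefSeq table for GRCm38.p6. For Fgf10, Fgf18 and Fgfr2 this is the start of the gene as given above, while the only Fgf9 window in the table is set on a start at 58072686, 2015 bases inside the gene. Capitals mark a GC box, GGGCGG on either strand, which 35.7% of the 32851 promoters in the table contain.
Fgf9, chr14:58072436-58072735, plus strand: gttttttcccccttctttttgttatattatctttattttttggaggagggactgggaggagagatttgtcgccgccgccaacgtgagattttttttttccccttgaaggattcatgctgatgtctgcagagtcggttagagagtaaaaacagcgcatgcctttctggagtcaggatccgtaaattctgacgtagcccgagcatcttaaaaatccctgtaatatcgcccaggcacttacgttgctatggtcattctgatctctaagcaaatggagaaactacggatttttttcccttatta
Fgf18, chr11:33147351-33147650, minus strand: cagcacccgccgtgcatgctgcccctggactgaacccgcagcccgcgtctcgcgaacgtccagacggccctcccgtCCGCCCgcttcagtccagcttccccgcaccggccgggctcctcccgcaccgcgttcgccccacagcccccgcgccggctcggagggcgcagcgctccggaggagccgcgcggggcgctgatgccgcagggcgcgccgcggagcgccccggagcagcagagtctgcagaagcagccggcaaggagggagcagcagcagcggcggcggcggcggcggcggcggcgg
Fgf10, chr13:118714449-118714748, plus strand: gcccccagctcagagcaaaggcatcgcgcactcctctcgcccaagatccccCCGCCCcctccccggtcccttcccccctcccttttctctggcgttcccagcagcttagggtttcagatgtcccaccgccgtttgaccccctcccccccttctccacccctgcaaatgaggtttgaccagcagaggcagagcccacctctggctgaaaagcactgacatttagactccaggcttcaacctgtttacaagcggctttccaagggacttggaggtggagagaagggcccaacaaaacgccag
Fgfr2, chr7:130266759-130267058, minus strand: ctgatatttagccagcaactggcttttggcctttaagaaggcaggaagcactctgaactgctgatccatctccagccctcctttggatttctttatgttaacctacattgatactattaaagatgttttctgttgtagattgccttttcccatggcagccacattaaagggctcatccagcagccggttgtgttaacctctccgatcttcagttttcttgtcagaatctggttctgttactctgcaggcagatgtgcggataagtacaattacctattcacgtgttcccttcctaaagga

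The Fgf18 promoter held 47 CG dinucleotides, and 1.44% of all promoters held as many, against a median of 7. Fgf9 held 12, Fgf10 held 10 and Fgfr2 held 4. Fgf10 and Fgf18 had 1 GC box each on the strand opposite the gene, while no such letters occurred in the Fgf9 and Fgfr2 windows. None of the 4 windows contained TATAAA (13.6% of all promoters) or CCAAT (37.4%) on either strand, which says only that these letters are not in the windows. Promoter sequences were matched for 7 of the 9 members. The sequences are a description of the loci.

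**Figure D1:**
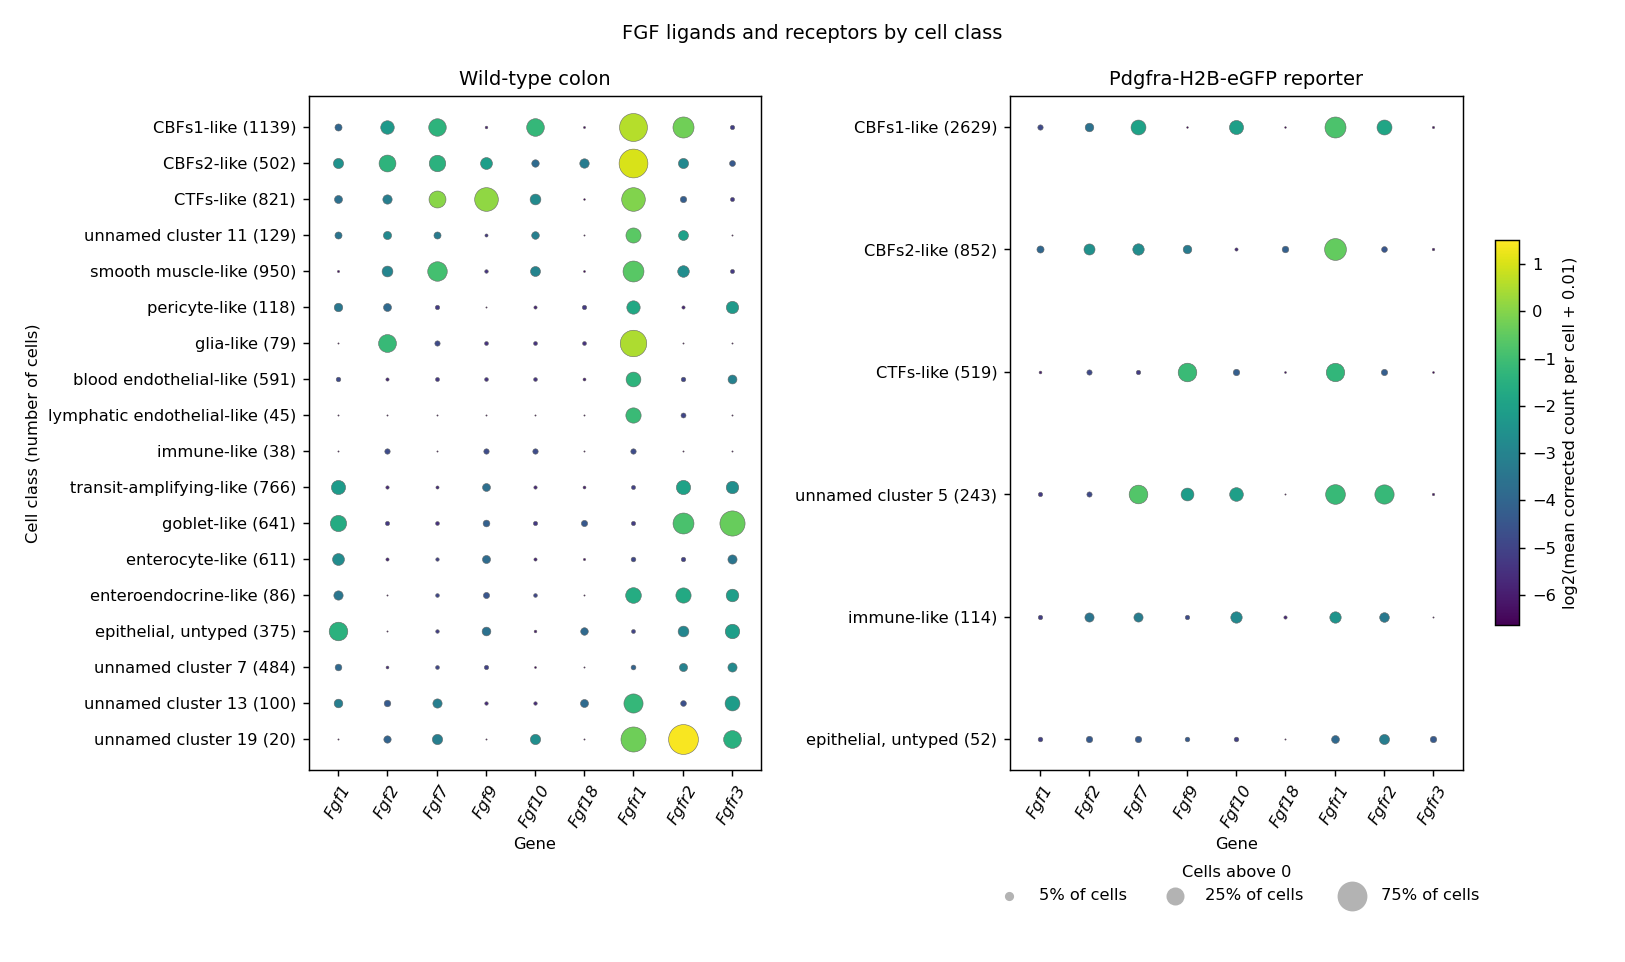
Mean corrected count per cell (colour, log2 scale) and share of cells above 0 (dot area) of the 9 genes (columns) in each class or cluster (rows, with cell numbers) of the wild-type (left) and reporter (right) libraries. Fgf9 stands out in CTFs-like cells (53.6% of wild-type, 33.1% of reporter cells), Fgf10 in CBFs1-like cells, Fgfr1 across the stroma and Fgfr3 in goblet-like cells.

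Fgf9, the ligand that marked the crypt top fibroblasts, had a mean of 1.11 corrected counts per cell in the wild-type CTFs-like cells. It was above 0 in 53.6% of them (50.1–57.0%), in 13.3% of CBFs2-like and in 0.527% of CBFs1-like cells. In blood endothelial-like cells, taken as cells that should lack it, the share was 1.18% (median 2053 genes per cell, against 2432 in CTFs-like cells). The reporter library had the same order, with means of 0.453 in CTFs-like, 0.0915 in CBFs2-like and 0.00114 in CBFs1-like cells, the last from a summed value of 3 over 2629 cells. CTFs-like cells thus held more Fgf9 than either crypt bottom class in each library, and CBFs1-like cells held almost none. Of all Fgf9 counts in the wild-type library, 75% lay in CTFs-like cells. When every cell was thinned to a total of 2000, the shares were 22.5% in CTFs-like and 4.58% in CBFs2-like cells. Epithelial cells had a share of 5.61% (4.73–6.59%), above that in endothelial-like cells, and the intervals of the epithelial classes overlapped, with shares from 3.49% in enteroendocrine-like to 7.20% in untyped epithelial cells. Epithelial classes had medians of 2925 to 3718.5 genes per cell, against 2053 in blood endothelial-like cells. The part of depth in the higher epithelial share was not tested. Thinned, the epithelial shares were 0.780% to 1.33% in goblet-like, enterocyte-like, transit-amplifying-like and untyped cells.

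Fgf7, also called keratinocyte growth factor, was found in all 3 fibroblast classes and in smooth muscle-like cells. Wild-type CTFs-like cells had a mean of 1.03, smooth muscle-like cells 0.512, CBFs1-like cells 0.370 and CBFs2-like cells 0.355. The shares of cells above 0 had another order, at 27.4% (24.4–30.6%) of CTFs-like, 36.3% (33.3–39.5%) of smooth muscle-like, 29.2% of CBFs1-like, 25.9% of CBFs2-like and 1.35% of blood endothelial-like cells. The high CTFs-like mean thus rested on cells with higher values, not on a larger share of cells. Among cells above 0 the mean was 3.76 in CTFs-like and 1.27 in CBFs1-like cells. In the reporter library the order was turned round, with means of 0.25 in CBFs1-like, 0.147 in CBFs2-like and 0.0173 in CTFs-like cells. There the highest Fgf7 mean, 0.597 (33.3% of cells), was in a cluster of 243 cells led by Ptprr, Nrg1 and Il1rl1, which met no class rule and was left unnamed. Smooth muscle-like cells held 18.6% of the highest summed level of the 10 fibroblast markers, and the part of this in their Fgf7 value was not tested.

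At a finer clustering the wild-type CTFs-like cells fell into a group of 632 cells led by Cybrd1, Sox6 and Fam180a and a group of 185 cells led by Lpar3, Dmp1, Il1rl1, Trpa1 and Nrg1. Fgf7 was above 0 in 88.1% (82.6–92.4%) of the 185 cells, with a mean of 4.07, a median of 3 and a highest value of 18, and in 9.81% (7.60–12.4%) of the 632 cells, with a mean of 0.147. The 185 cells, 2.47% of the library, held 37.3% of all its Fgf7 counts. Fgf9 was closer between them, with means of 1.45 in the smaller and 1.01 in the larger group. Fgf1 was above 0 in 20% of the smaller and 1.90% of the larger group. Fgfr2 was above 0 in 0 of the 185 cells, where a limit of 3 counts stands at 1.62% of the cells, which does not bound how many cells express the gene. The finer clustering of the reporter library gave a like pair, 518 cells led by Bmp3, Wif1 and Sox6 with an Fgf7 share of 1.74% and 122 cells led by Ptprr, Il1rl1, Nrg1 and Lpar3 with a share of 48.4% (39.2–57.6%). Only 1 of these 122 cells belonged to the CTFs-like class at the main clustering. Fgf9 was above 0 in 29.5% of the 122 cells, and Fgfr2 in 20.5%. Since these groups were cut from the same cells, the values describe the groups and are no test. Of the 821 CTFs-like cells, 145 were above 0 for both Fgf7 and Fgf9, 80 for Fgf7 alone, 295 for Fgf9 alone and 301 for neither.

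**Figure D2:**
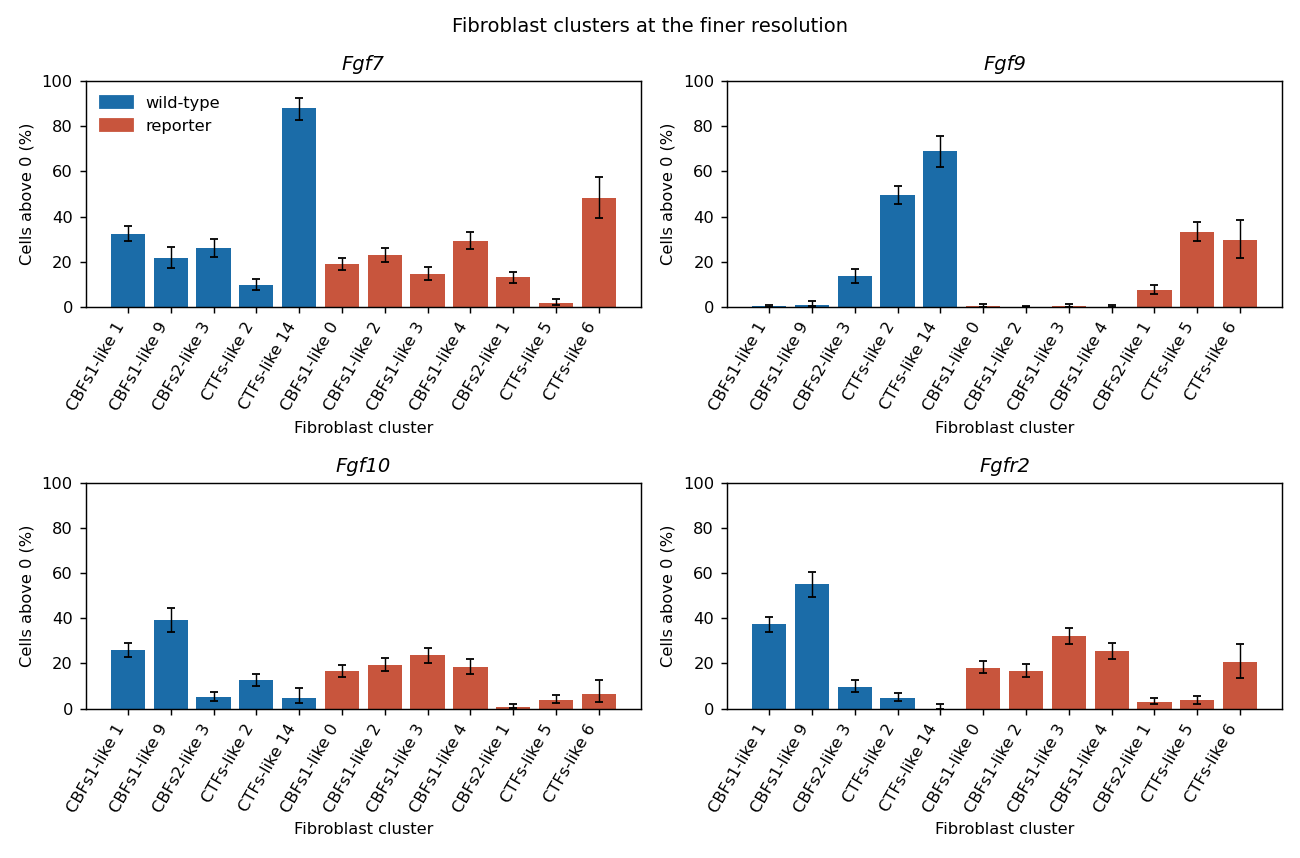
Share of cells above 0 for Fgf7, Fgf9, Fgf10 and Fgfr2 (a panel each) in the fibroblast clusters of the finer clustering, wild-type in blue and reporter in red. Bars are shares of cells in percent and error bars exact 95% intervals. The CTFs-like cluster 14 of the wild-type library reaches 88.1% for Fgf7 beside 9.81% in CTFs-like cluster 2.

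Fgf10, a mesenchymal ligand needed for epithelial buds of several organs, was highest in CBFs1-like cells. Its wild-type means were 0.417 in CBFs1-like (29.6% of cells, 26.9–32.3%), 0.136 in CTFs-like and 0.0598 in CBFs2-like cells, and the smooth muscle-like mean was 0.117. The share was 1.18% in blood endothelial-like and 1.01% in epithelial cells. Reporter means were 0.229 in CBFs1-like, 0.0443 in CTFs-like and 0.00939 in CBFs2-like cells, and the unnamed Ptprr- and Nrg1-led cluster had 0.226. CBFs2-like cells were thus the lowest fibroblasts for Fgf10 in both libraries, and CBFs1-like cells held 60.7% of the wild-type counts. Within wild-type CBFs1-like cells, Fgf10 was unequal. A group of 330 cells led by Adamtsl2, Kcnk2, Frzb and Adamdec1 had a mean of 0.624 (39.1%, 33.8–44.6%), and a group of 811 cells led by Sfrp2 and Stmn2 had 0.333 (25.8%, 22.8–28.9%). Among reporter clusters, 659 cells led by Adamdec1, Tnc and Kcnk2 had the highest CBFs1-like mean, 0.288 (23.5%, 20.3–26.9%), and the other 3 CBFs1-like clusters had 0.209 to 0.236. The 114 immune-like cells of the reporter library had an Fgf10 share of 12.3%, at a summed fibroblast marker level of 24.3% of the highest class, and the part of this level in the share was not tested.

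Fgf2, the basic FGF stored in extracellular matrix, had its highest class mean outside the fibroblasts, though fibroblasts held most of its wild-type counts. Of these counts, 32.0% lay in CBFs1-like, 26.3% in CBFs2-like and 11.6% in CTFs-like cells. The 79 glia-like cells of the wild-type library had a mean of 0.443 (30.4%, 20.5–41.8%). CBFs2-like cells followed with 0.371 (27.1%, 23.2–31.2%), and the intervals of the glia-like and CBFs2-like shares overlapped. CBFs1-like cells had a mean of 0.198, smooth muscle-like cells 0.121 and CTFs-like cells 0.0999, and the share in blood endothelial-like cells was 0.846%. The summed fibroblast marker level of the glia-like cells was 7.87% of the highest class. In the reporter library, which had no glia-like cluster, the means were 0.158 in CBFs2-like, 0.0734 in CBFs1-like and 0.0250 in CTFs-like cells, the same order as in the wild-type fibroblasts.

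Fgf18 was the scarcest ligand, above 0 in 1.48% of all wild-type cells. CBFs2-like cells had a mean of 0.0936 (8.37%, 6.10–11.1%), and CTFs-like and CBFs1-like cells had 1 and 3 corrected counts in all. Among the named classes the untyped epithelial cells followed with 0.0587 (5.33%, 3.29–8.12%) and goblet-like cells with 0.0359 (3.59%, 2.29–5.34%), against 0.677% in blood endothelial-like cells. The thinned share of goblet-like cells was 0.312%, so no order is read for them. CBFs2-like cells were again highest in the reporter library, with a mean of 0.0458 (3.99%), while the summed values were 4 in CBFs1-like and 2 in CTFs-like cells.

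Fgf1, the acidic FGF, was the only member ligand with most of its counts in the epithelium, where 67.8% of the wild-type counts lay. The untyped epithelial cells, led by Krt36, Defb45 and Fut9, had the highest mean, 0.360 (33.1%, 28.3–38.1%). Goblet-like cells had 0.306 (25.1%, 21.8–28.7%), transit-amplifying-like cells 0.209 (19.1%) and enterocyte-like cells 0.141 (13.4%, 10.8–16.4%). The share in blood endothelial-like cells was 1.86%. Among fibroblasts CBFs2-like cells had the highest mean, 0.165 (9.76%), against 0.0694 in CTFs-like and 0.0536 in CBFs1-like cells. At the finer clustering the Lpar3- and Nrg1-led group of 185 CTFs-like cells had a mean of 0.232, above the CBFs2-like cells, and the other 632 had 0.0222. The intervals of the untyped epithelial and goblet-like shares overlapped slightly, and those of goblet-like and enterocyte-like cells did not. In the reporter library CBFs2-like cells were likewise the highest fibroblasts, with 0.0540 against 0.0259 in CBFs1-like and 0.00578 in CTFs-like cells.

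**Figure D3:**
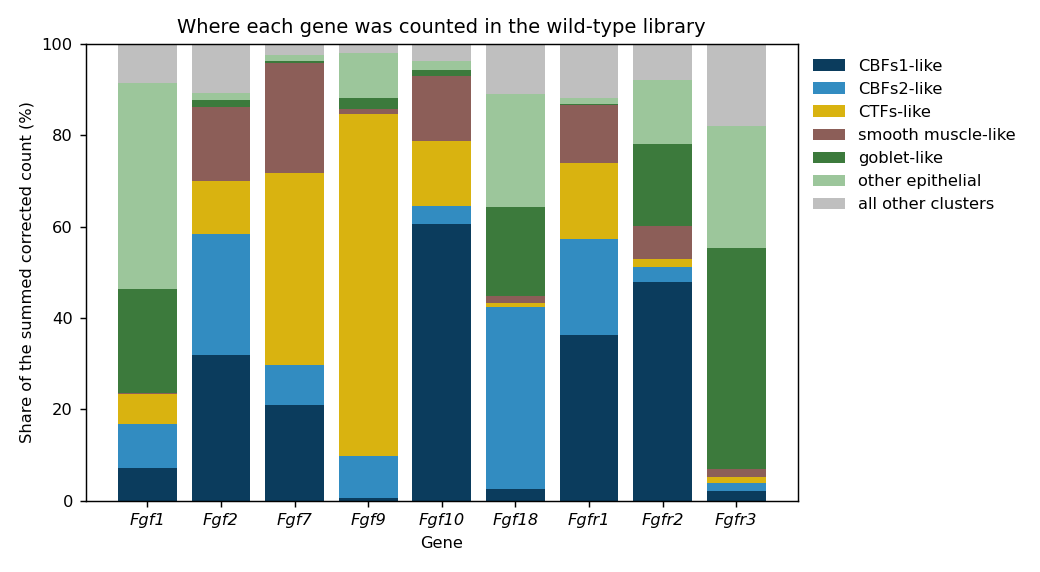
Share of the summed corrected count of each gene in the wild-type library (vertical axis, percent) that lies in each class (stacked colours), for the 9 genes. CTFs-like cells hold 75% of Fgf9, CBFs1-like cells 60.7% of Fgf10, goblet-like cells 48.4% of Fgfr3 and the epithelium 67.8% of Fgf1.

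Fgfr1, the main FGF receptor of mesenchyme, was found throughout the stroma. Its wild-type means were 1.98 in CBFs2-like (79.3%, 75.5–82.7%), 1.51 in CBFs1-like (74.5%, 71.8–77.0%), 1.42 in glia-like (67.1%), 0.952 in CTFs-like (53.3%, 49.9–56.8%) cells, with 0.637 in the smooth muscle-like class (41.9%). Lymphatic and blood endothelial-like cells had 0.444 and 0.376, and pericyte-like cells 0.288. In the epithelium, enteroendocrine-like cells stood apart with 0.314 (23.3%, 14.8–33.6%), and the other epithelial classes had shares of 1.33% to 1.96%, at medians of 2925 to 3401.5 genes per cell. Fibroblasts held 73.9% of all Fgfr1 counts. The reporter fibroblasts had the same order as the wild-type ones, with 0.718 in CBFs2-like, 0.558 in CBFs1-like and 0.401 in CTFs-like cells. At the finer clustering a reporter cluster of 68 cells led by Chodl, Ctxn3, Rgs5, Kit and Ano1 had the highest Fgfr1 mean of that library, 0.971 (57.4%, 44.8–69.3%).

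Fgfr2 was present on both sides of the epithelial border. Among the named wild-type classes the highest means were 0.820 in CBFs1-like cells (42.4%, 39.5–45.3%) and 0.546 in goblet-like cells (42%, 38.1–45.9%). Enteroendocrine-like cells had 0.291, transit-amplifying-like cells 0.251 (19.3%, 16.6–22.3%) and enterocyte-like cells 0.0196 (1.80%, 0.902–3.2%), which is at the level of blood endothelial-like cells (1.86%). CBFs2-like and CTFs-like cells had 0.129 and 0.0426. Thinned to 2000, the shares were 15.5% in CBFs1-like, 11.7% in goblet-like and 0.853% in CTFs-like cells. The reporter fibroblasts had means of 0.264 in CBFs1-like, 0.0424 in CTFs-like and 0.0352 in CBFs2-like cells, and 0.432 (35.4%) in the unnamed Ptprr- and Nrg1-led cluster. The CBFs1-like class was unequal for Fgfr2 as for Fgf10. The Adamdec1-led group had a mean of 1.29 (55.2%, 49.6–60.6%) and the Sfrp2-led group 0.628 (37.2%, 33.9–40.7%) in the wild-type library, and the Adamdec1-led reporter cluster had 0.414 (32.2%) beside 0.195 to 0.298 in the other 3. Of the 1139 wild-type CBFs1-like cells, 362 were above 0 for both Fgfr1 and Fgfr2.

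Fgfr3 was highest in the epithelium. Goblet-like cells had a mean of 0.760 (60.5%, 56.6–64.3%) and held 48.4% of its wild-type counts. No deep crypt secretory class was named. The goblet-like class, led by Retnlb, may therefore hold the Reg4+ secretory cells that the study separates from goblet cells. The untyped epithelial cells had 0.224 (20%), enteroendocrine-like cells 0.221 (15.1%), transit-amplifying-like cells 0.154 (14.8%, 12.3–17.5%) and enterocyte-like cells 0.0802 (7.86%, 5.85–10.3%). Outside the epithelium, pericyte-like cells had 0.203 (14.4%, 8.62–22.1%) and blood endothelial-like cells 0.107 (7.45%), while the fibroblast share was 1.91%. The goblet-like share exceeded that of every other named class beyond the intervals. In the reporter fibroblasts Fgfr3 was above 0 in 0.35% of 4000 cells, too few to compare its classes. Of the 641 goblet-like cells, 160 were above 0 for both Fgfr2 and Fgfr3, 109 for Fgfr2 alone, 228 for Fgfr3 alone and 144 for neither. At the finer clustering the larger goblet-like clusters, 325 cells led by Retnlb and 311 led by Zg16, had like Fgfr3 shares, 60% and 61.7%. Their Fgfr2 shares were 46.8% (41.2–52.4%) and 36.7% (31.3–42.3%).

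**Figure D4:**
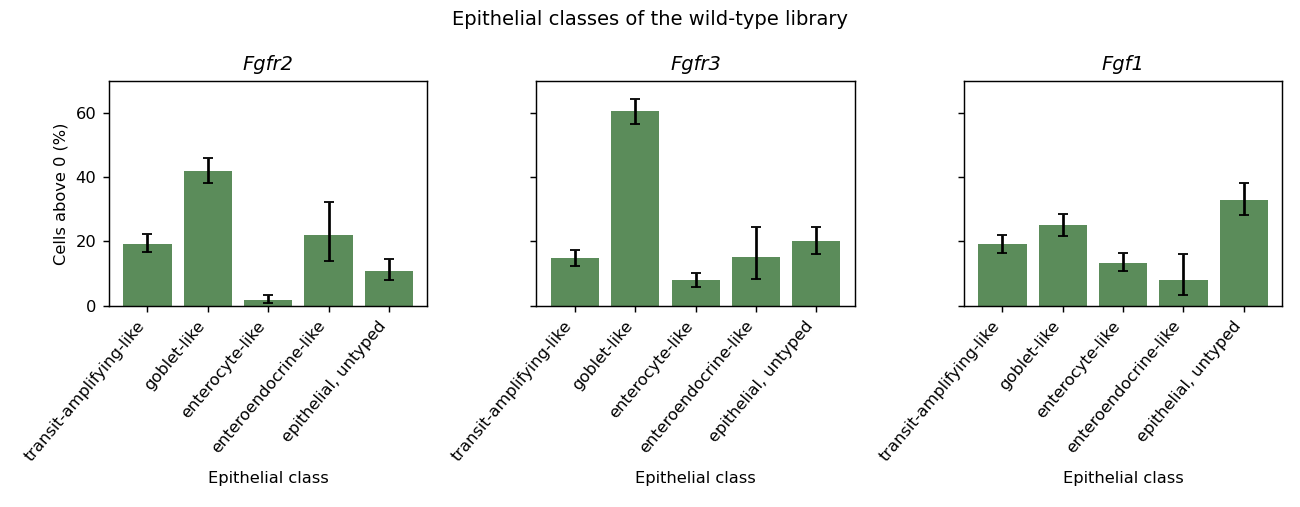
Share of cells above 0 (percent, bars, with exact 95% intervals) of Fgfr2, Fgfr3 and Fgf1 (a panel each) in the epithelial classes of the wild-type library. Goblet-like cells have the highest Fgfr3 share, 60.5%, and enterocyte-like cells the lowest Fgfr2 share, 1.80%.

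Ligand and receptor genes were spread differently over the classes. At least 1 of the 6 ligands was above 0 in 71.0% of CTFs-like, 62.5% of CBFs2-like, 58.8% of CBFs1-like and 47.4% of smooth muscle-like wild-type cells, against 6.43% of blood endothelial-like cells. At least 1 of the 3 receptors was above 0 in 85.3% of CBFs1-like, 82.5% of CBFs2-like, 77.8% of goblet-like, 55.5% of CTFs-like and 11.3% of enterocyte-like cells. CTFs-like cells therefore had the highest ligand share of this library and a lower receptor share than the other fibroblasts, while enterocyte-like cells had the lowest receptor share of the named epithelial classes. The enterocyte-like clusters had median mitochondrial shares of 12.1% and 12.9%, against 6.38% in goblet-like cells. The part of this in their receptor share was not tested. The ligand order did not hold in the reporter library, where at least 1 ligand was above 0 in 53.1% of the unnamed Ptprr- and Nrg1-led cells, 41.2% of CBFs1-like, 38.3% of CTFs-like and 33.2% of CBFs2-like cells. The receptor order of the fibroblast classes did, with 54.2% of CBFs1-like, 47.1% of CBFs2-like and 35.1% of CTFs-like cells.

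The study asked how crypt top and crypt bottom fibroblasts differ as signal sources. With CTFs-like cells set over both CBFs-like classes together, Fgf9 and Fgf7 were higher in the wild-type library by log2 ratios of 3.94 and 1.49, 2 of 9 members, where 6.18% of all genes tested were higher. Fgf18, Fgfr2, Fgf2 and Fgf10 were lower by at least 2-fold (log2 ratios -4.64, -3.84, -1.33 and -1.17), 4 of 9 members, where 11.8% of all genes were lower. The Fgf18 ratio rests on 1 corrected count in CTFs-like cells, and the log2 ratio of its shares of cells had an interval of -9.83 to -1.94. With each cell thinned to 2000 the Fgf10 ratio was -0.81, within 2-fold, and Fgf18 fell below the filter on summed values, and without cells above 10% mitochondrial values the Fgf10 ratio was -0.89. In the reporter library Fgf9 was higher (log2 ratio 4.28, background 7.73%). There Fgf7 (-3.70), Fgf1 (-2.50), Fgfr2 (-2.29), Fgf10 (-1.98), Fgf2 (-1.91) and Fgf18 (-1.68) were lower, 6 of the 8 members tested, where 11.2% of all genes were lower. Fgfr3 fell below the filter on summed values. The Fgf1 and Fgf18 ratios rest on sums of 3 and 2 in CTFs-like cells, with intervals of -4.72 to -0.84 and -7.81 to 0.10 for the log2 ratio of shares. If the Ptprr- and Nrg1-led cluster was counted with the CTFs-like cells, an alternative added after the values were seen, the log2 ratios became -0.15 for Fgf7, -0.78 for Fgf10 and -0.32 for Fgfr2, and 3 members were lower. Under that alternative 885 of all 12480 genes tested were lower. In the 243 cells of that cluster the shares above 0 were 17.7% for Fgf10 and 35.4% for Fgfr2. At the finer clustering, the 122 CTFs-like cells also led by Ptprr, Il1rl1 and Nrg1 had 8 cells above 0 for Fgf10 and 25 for Fgfr2. The part of the remaining cells in these shifts was not tested. The Fgf7 ratio also came within 2-fold at the finer clustering (-0.19) and with 15 principal components (-0.20). Fgf9 was the only member higher in CTFs-like cells of both libraries. The reporter CTFs-like cells also had the highest summed smooth muscle marker level of that library, and its part in these ratios was not tested.

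Between the crypt bottom classes the members split in opposite directions. In the wild-type library Fgf18 (log2 ratio 5.15), Fgf9 (4.96), Fgf1 (1.63) and Fgfr3 (1.04) were higher in CBFs2-like cells, 4 of 9 members, where 8.28% of all genes were higher. Fgf10 (-2.80) and Fgfr2 (-2.66) were lower, where 6.07% of all genes were lower. The Fgf18 ratio rests on a sum of 3 in CBFs1-like cells, with an interval of 3.34 to 7.32 for the log2 ratio of shares, and that interval for Fgfr3, -0.12 to 1.97, included 0. Thinned, Fgf18 and Fgfr3 fell below the filter, and with 15 principal components the Fgfr3 ratio was 0.90. The reporter comparison was added to those planned. There Fgf9 (6.33), Fgf18 (4.91), Fgf2 (1.11) and Fgf1 (1.06) were higher, 4 of the 8 members tested with a background of 5.28%. Fgf10 (-4.61) and Fgfr2 (-2.90) were lower with a background of 12.7%. The Fgf9 ratio rests on a sum of 3 in CBFs1-like cells, with an interval of 4.31 to 8.24. Without the CBFs1-like clusters led by Cxcl2 or Saa3, the remaining CBFs1-like cells held no Fgf9 or Fgf18, and the log2 ratios were at least 4.95 and 3.95. Fgf18, Fgf9 and Fgf1 were higher and Fgf10 and Fgfr2 lower in CBFs2-like cells of each library. Fgf7 and Fgfr1 stayed within 2-fold in both.

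**Figure D5:**
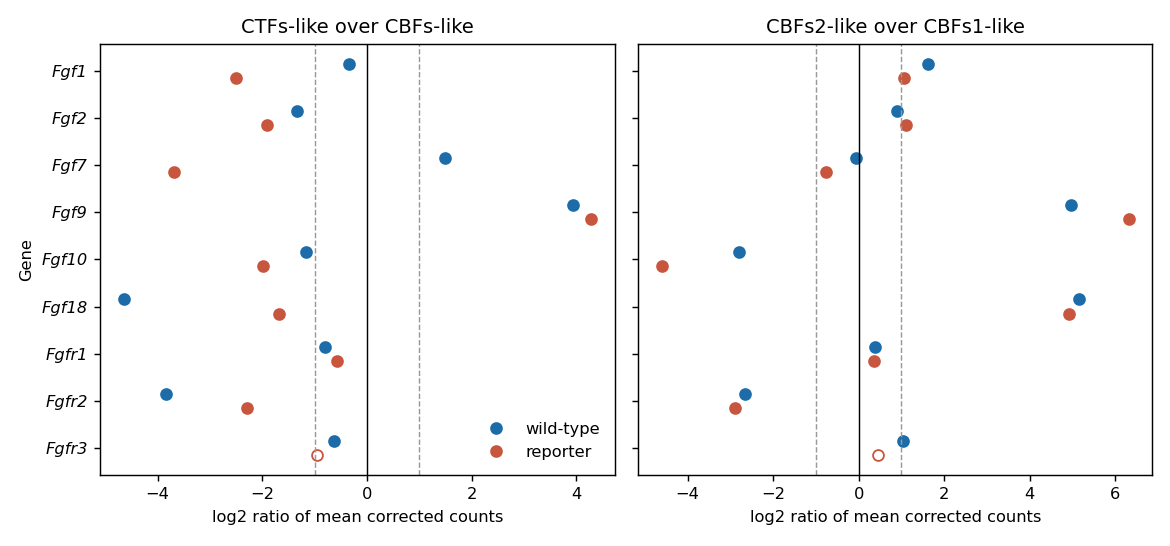
Log2 ratio of mean corrected counts (horizontal axis) of the 9 genes (vertical axis) for CTFs-like over CBFs-like cells and for CBFs2-like over CBFs1-like cells, in the wild-type and reporter libraries. Open points fell below the filter on summed values and dashed lines mark 2-fold. Fgf7 lies at 1.49 and -3.70 for CTFs-like cells, and Fgf9 lies to the right in both panels.

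Against all fibroblasts, epithelial cells had higher Fgfr3 (log2 ratio 3.83) and Fgf1 (1.53), 2 of 9 members, where 38.8% of all genes were higher. Fgfr1 (-5.55), Fgf7 (-5.30), Fgf10 (-4.58), Fgf2 (-4.50) and Fgf9 (-2.79) were lower, 5 of 9 members, where 19.2% of all genes were lower. Fgfr2 (-0.74) and Fgf18 (0.02) stayed within 2-fold. Smooth muscle-like cells had no member higher (6.5% of all genes) and 6 of 9 lower than fibroblasts (15.5% of all genes). Those were Fgf9 (-4.93), Fgf1 (-4.69), Fgf18 (-3.30), Fgfr2 (-1.51), Fgfr1 (-1.16) and Fgf10 (-1.10), with sums of 3 and 2 behind Fgf1 and Fgf18 and intervals of -6.57 to -2.70 and -6.24 to -1.21. Fgf10 came within 2-fold at the finer clustering, without mitochondria-rich cells and thinned (-0.998, -0.877 and -0.903), and Fgf18 fell below the filter when thinned. Fgf7 (-0.20) and Fgf2 (-0.73) stayed within 2-fold. Transit-amplifying-like over enterocyte-like cells had 1 of the 6 members tested higher, Fgfr2 (3.67), where 33% of all genes were higher, and 0 lower (11.4%). No stem-like class was named at the main clustering, so the transit-amplifying-like class may hold stem cells. Goblet-like over enterocyte-like cells had 4 of the 7 members tested higher, where 27.2% of all genes were higher, and 0 lower (12.3%). They were Fgfr2 (4.80), Fgf18 (3.45), Fgfr3 (3.24) and Fgf1 (1.12). The Fgf18 ratio rests on a sum of 2 in enterocyte-like cells, with an interval of 1.44 to 6.58, and fell below the filter when thinned, with sums of 2 and 1. The Fgf1 ratio came within 2-fold in 3 alternatives, at the finer clustering (0.88), with 15 principal components (0.51) and without mitochondria-rich cells (0.91). Leaving out mitochondria-rich cells kept only 112 of the 611 enterocyte-like cells, against 546 of 641 goblet-like and 436 of 766 transit-amplifying-like cells.

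The 7 further lists hold 76 other genes of the pathway. Of 12 other secreted ligands, 6 were listed for wild-type and 1 for reporter cells, and none passed the filter on summed values in a comparison of fibroblast classes. The highest class mean of this list, 0.0263 for both Fgf15 and Fgf8 in immune-like cells, was 1 corrected count over 38 cells. Of the 4 intracellular FGF-related factors, 2 of 3 tested were lower in wild-type CTFs-like than CBFs-like cells and 0 of 3 in the reporter library (11.8% and 11.2% of all genes), and the list's highest mean was 0.221 for Fgf14 in enteroendocrine-like cells. Of the other receptors and co-receptors, 1 was higher and 4 were lower in CTFs-like cells in each library, of 7 wild-type genes tested (median log2 ratio -1.11, against -0.10 over all genes) and 6 reporter genes (-1.52 against 0.10). Over all genes 6.18% were higher and 11.8% lower in the wild-type and 7.73% and 11.2% in the reporter library. Flrt3 and Flrt2, membrane proteins that bind FGF receptors, were both lower. Flrt3 means were 0.0146 in CTFs-like and 0.186 in CBFs-like wild-type cells, and 0.00193 and 0.0290 in the reporter library. Flrt2 had 0.287 in wild-type CBFs-like cells against 3 counts in all CTFs-like cells, and was at least 10.6-fold lower in the reporter library, where CTFs-like cells held none (floor of 3 counts over the class). Fgfr4, the remaining FGF receptor kinase, had means of 0.00365 and 0.0463 in the wild-type library, 3 counts in CTFs-like cells with an interval of -5.80 to -1.87 for the log2 ratio of shares, and was at least 3.83-fold lower in the reporter library. The list's highest mean was 6.28 for Ncam1, a neural adhesion molecule, in glia-like cells.

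Heparan sulfate proteoglycans and their enzymes had 0 higher and 5 lower of 18 tested in CTFs-like over CBFs-like cells of each library, where 11.8% (wild-type) and 11.2% (reporter) of all genes were lower (median -0.27 against -0.10 for wild-type, -0.48 against 0.10 for reporter cells). Over all genes 6.18% and 7.73% were higher. Gpc3, a glypican, had the largest difference, with wild-type means of 0.0146 against 0.818 and reporter means of 0.00578 against 0.263 (log2 ratios -5.81 and -5.51). Sulf2, which removes sulfate groups from heparan sulfate, had 0.0670 against 1.63 and 0.0250 against 0.518 (-4.61 and -4.37). Ext1, a polymerase of the sugar chain, and Sdc1, a syndecan, were lower by smaller ratios, -1.24 and -1.46 for Ext1 and -1.14 and -2.09 for Sdc1. The crypt bottom classes differed for Gpc3 and Sdc1. Gpc3 means were 0.281 in CBFs1-like and 2.04 in CBFs2-like wild-type cells, and 0.0609 and 0.887 in the reporter library. Sdc1 means were 0.277 and 0.0916, and 0.143 and 0.0258. For Sdc1 the CBFs2-like cells were thus close to the CTFs-like cells (0.0999 wild-type, 0.0270 reporter). In epithelial cells 3 of 18 were higher and 11 lower than in fibroblasts (median -2.09 against 0.56), where 38.8% and 19.2% of all genes were. The list's highest mean was 6.34 for Sdc4 in glia-like cells.

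Feedback and response genes had 5 higher and 0 lower of 16 in wild-type CTFs-like over CBFs-like cells (median 0.46 against -0.10), and 5 higher and 1 lower of 15 in the reporter library (0.65 against 0.10), where 6.18% and 7.73% of all genes were higher and 11.8% and 11.2% lower. Ccnd1, the G1 cyclin D1, had means of 1.18 against 0.278 and 0.447 against 0.156 (log2 ratios 2.08 and 1.52). Spry4, a Sprouty inhibitor, had 0.537 against 0.172 and 0.145 against 0.0523 (1.64 and 1.47). Etv1, an ETS transcription factor, had 0.847 against 0.332 and 0.295 against 0.108 (1.35 and 1.45). Smooth muscle-like cells had 0 higher and 12 lower of 16 against fibroblasts (median -1.73 against -0.13), where 6.5% of all genes were higher and 15.5% lower. In epithelial over fibroblast cells 5 were higher and 6 lower of 16 (38.8% and 19.2% of all genes). In transit-amplifying-like over enterocyte-like cells 7 were higher and 2 lower of 16 (33% and 11.4%), and in goblet-like over enterocyte-like cells 4 were higher and 1 lower of 16 (27.2% and 12.3%). The shares of this list called higher in the goblet-like comparison and in the epithelial one were thus no larger than those of all genes. The list's highest mean was 59.1 for Fos in glia-like cells. Many pathways act on these genes. The 13 adaptors and effectors had 0 higher and 0 lower in both fibroblast comparisons of both libraries. For CTFs-like over CBFs-like cells, 6.18% (wild-type) and 7.73% (reporter) of all genes were higher and 11.8% and 11.2% lower. For CBFs2-like over CBFs1-like cells, 8.28% and 5.28% were higher and 6.07% and 12.7% lower. The highest mean of the adaptors and effectors was 2.29 for Mapk3 in enterocyte-like cells. Of the 2 carrier proteins none passed 2-fold between fibroblast classes, and Fgfbp1, which releases FGFs from the matrix, had its highest mean, 3.23, in enterocyte-like cells.

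Likeness of pattern was measured as the Pearson correlation of log2(class mean + 0.01) over the 14 named classes of the wild-type library, among 13167 genes. These correlations are descriptions over classes that share 1 library. Fgfr1 was most like Bmp1 (r = 0.978), Plscr4 and Nid1, and Fgf2 most like Adamts12 (0.964), Olfml1 and Matn2. Fgf7 was most like P2rx6 (0.951), Dnm1 and Sdk1, and Fgf10 most like Prr16 (0.938), Tnfsf13b and Tspan11. Fgf9 had the loosest matches, Fam180a (0.862), Bmp3 (0.784), a bone morphogenetic protein, and Trpa1 (0.767), an ion channel, each with its highest mean in CTFs-like cells. Fgf1 was most like Ctf1 (0.945), Tmem254a and Sox9, Fgfr3 most like Trim39 (0.933), Pih1d2 and Fkbpl, and Fgfr2 most like Ttc37 (0.873), Rgs17 and Rabl6. Fgf18 had no class mean of at least 0.1 and was not matched.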

How the data were processed

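Single-cell RNA was measured with the 10x 3′ assay, kit V3 for the wild-type and V2 for the reporter library. The submitters' processing notes name Cell Ranger, R 3.6.2, Seurat 3.1 and the build mm10. The count-like table of each library, deposited by the authors as read counts, holds whole numbers that SCTransform had corrected for depth (used as a score), and the companion table holds their natural log after adding 1. As the values are no raw counts, the planned sums of counts were replaced by mean corrected counts per cell. The study states filters on genes per cell and mitochondrial reads, but the wild-type table holds more cells than its stated final data set, with mitochondrial shares of up to 32.1%. Shares above 10% occurred in 3043 wild-type and 0 reporter cells.

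Cells were clustered here with Seurat 5.3.0 in R 4.3.3 (30 principal components, resolution 0.45 and 0.3), with the FGF lists kept out of the variable features. A cluster was named where its marker list had a median log2 fold of at least 1.5 over the rest with at least 3 markers passing, and was left unnamed where an unrelated list that also passed had a median above 0.5 times the best one. This naming rule was set after marker scores were seen and before member values were printed. Reporter CBFs1-like clusters were named in a second step against CBFs2-like and CTFs-like cells, and 2 of the 3 had no own marker among their leading genes. Doublets were kept: Scrublet (scanpy 1.11.5) called 7 wild-type and 5 reporter cells, too few to have worked.

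A class comparison used genes with a summed value of at least 20, and a class at 0 was set to a floor of 3 counts over the class. Shares were also computed after each cell was thinned to a total of 2000, which left out 0 cells. Calculations were checked on simulated data. The named genes were every member, up to 10 list genes past 2-fold the same way for CTFs over CBFs in both libraries, the gene with the highest class mean of each list, and the 3 genes most like each member. Members and lists were chosen with earlier results of these data known. Alternatives were another resolution, 15 principal components, FGF genes kept in, doublets or mitochondria-rich cells left out, thinning, another scaling and no filter.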

Additional observations from a re-analysis of the deposited data

Results flagged for a closer look

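Fgf7 had opposite directions in the libraries for CTFs-like over CBFs-like cells, with a wild-type log2 ratio of 1.49 and a reporter log2 ratio of -3.70, and the difference was not tested. The Fgf7-rich cells led by Nrg1 and Il1rl1 were inside the CTFs-like class of the wild-type library and, apart from 1 of 122 cells, outside it in the reporter library. With the reporter cluster led by Ptprr and Nrg1 counted as CTFs-like the reporter ratio was -0.15, at the finer clustering it was -0.19 and with 15 principal components it was -0.20. The libraries differed in kit, sort and corrected depth, which cannot be told apart from the genotype.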

How the results depend on the processing

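No paired analysis was possible because each group is 1 library and no replicate number is given, and for the same reason no replicate could be left out. Of 134 recomputed counts of members past 2-fold, 130 stayed within 1.5 times the count given. With each cell thinned to a total of 2000, the members lower in wild-type CTFs-like cells went from 4 to 2 and those higher in wild-type CBFs2-like cells from 4 to 2. Over all genes the first went from 1535 of 13036 tested to 1100 of 10387. The second went from 1025 of 12377 to 728 of 9442. With the Nrg1-led cluster counted as CTFs-like, the members lower in reporter CTFs-like cells went from 6 to 3, and all genes lower from 1384 of 12323 to 885 of 12480. With the FGF genes kept in the variable features, the members higher in transit-amplifying-like over enterocyte-like cells went from 1 to 2. All genes higher there went from 4174 of 12639 to 3907 of 12625. Of 544 recomputed log2 ratios of members, 514 moved by no more than 0.5 times the width of the 95% interval of the log2 ratio of shares (or by 1 where there was no interval) and 30 by more, and no called direction was reversed. Both totals include settings that could change little. Dropping the filter, or the 7 wild-type and 5 reporter doublets, left all 65 ratios the same each time. No reporter cell exceeded 10% mitochondrial values, so that setting left the reporter values as they were. Thinning moved 14 ratios and left 51 the same, and counting the Nrg1-led cluster as CTFs-like moved 3 and left 5. Wild-type CTFs-like over CBFs-like ratios ranged from 1.14 to 1.74 for Fgf7 and from -1.18 to -0.81 for Fgf10. Leaving out the reporter CBFs1-like clusters led by Cxcl2 or Saa3 took the Fgf9 ratio of CTFs-like cells to 3.44, and those of Fgf9 and Fgf18 in CBFs2-like over CBFs1-like cells to bounds of 4.95 and 3.95, since the CBFs1-like cells left held none. Thinning moved 67 of 71 shares of cells, so shares depend on depth. The true depth behind the corrected values is unknown, and the intervals give no error between mice.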

Other observations

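A wild-type cluster of 20 cells, led by Pcp4, Hand1 and Cckar and left unnamed, had the highest Fgfr2 mean of that library, 2.65, with 17 cells above 0 (85%, 62.1–96.8%). Its Fgfr1 mean was 0.80 and its Fgfr3 share 30% (11.9–54.3%). At least 2 of the 3 receptors were above 0 in 65% of these cells. Its summed fibroblast marker level was 2.09% of the highest class, beside 27.6% for the smooth muscle and 32.7% for the pericyte markers. At the finer clustering Pcp4 and Hand1 led a cluster of 48 cells, named smooth muscle-like, with an Fgfr2 mean of 1.33 (50%, 35.2–64.8%) and an Fgf10 mean of 0.583 (33.3%, 20.4–48.4%).

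An unnamed wild-type cluster of 100 cells led by Notch3, Ndufa4l2, Heyl and Rgs5, genes of mural cells, had an Fgfr3 share of 21% (13.5–30.3%) and an Fgfr1 share of 35%, beside 14.4% and 16.9% in the pericyte-like cells. Its summed levels of pericyte and of blood endothelial markers were 82.8% and 89.8% of the highest class, and its median was 3850 genes per cell, against 2102 in pericyte-like and 2053 in blood endothelial-like cells. The part of these in its shares was not tested. An unnamed cluster of 484 cells led by hemoglobin genes had an Fgfr3 share of 7.85%, at a summed epithelial marker level of 36.2% of the highest class. The finer clustering held 370 cells led by hemoglobin genes and named erythroid-like. It also held a further goblet-like cluster of 117 cells led by Slfn4 and Spink4. At the finer clustering, the 475 cells named stem-like from Lgr5 and other markers had Fgfr2 and Fgfr3 shares of 19.8% and 16.6%, and the 228 transit-amplifying-like cells had 21.1% and 14.0%, so the intervals overlapped.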
